A study of Sus scrofa with 8 samples.

Results

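The antigen presentation genes of pig pancreatic ductal organoids (PPDO) were taken as a list of 10 genes: B2M, TAP1, TAP2, TAPBP, PSMB8, PSMB9, PSMB10, NLRC5, CIITA and CD74. A gene was included where its name stood in the deposited count table, and the rows of a gene were summed. Of the 10 genes, 8 were found by name among the 30282 genes of the table. TAP2 and TAPBP were not found by name. Their identifiers were present, 1 without a symbol and 1 under the name ZBTB22, so both are described apart from the 8 and as uncertain.

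Cells show fragments of their own proteins on class I molecules. The proteasome cuts the proteins, the transporter made of TAP1 and TAP2 brings the peptides into the endoplasmic reticulum, tapasin (TAPBP) helps to load them, and B2M is the light chain that every classical class I molecule needs. PSMB8, PSMB9 and PSMB10 are the catalytic subunits that replace the constitutive ones in the immunoproteasome, and interferon-gamma is their best known inducer. NLRC5 is the transactivator of class I genes and CIITA that of class II genes, whereas CD74 is the invariant chain that guards the groove of class II molecules and also serves as a surface receptor for the cytokine MIF. Epithelial cells, ducts included, generally carry class I, while class II is the mark of professional antigen presenting cells and appears on epithelium mainly under inflammatory signals.

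PPDO are organoids grown from ducts picked by hand from the pig pancreas. RNA was measured in 4 PPDO lines, 1 from an embryonic pancreas (Em), 1 from a late postnatal (LPN) and 2 from early postnatal pancreata (EPN1 and EPN2), each cultured for 7 days in complete or in differentiation medium, so that 8 libraries fall into 2 groups of n = 4. Complete medium held prostaglandin E2, FGF10, EGF, gastrin, WNT3a, noggin and R-spondin, the last 3 replaced during maintenance by a supplement of conditioned medium, and differentiation medium lacked all of these, while both contained N2, B27, A83-01, Y-27632, nicotinamide and N-acetyl-L-cysteine. The study used pigs of German landrace background, either wild-type or carrying an insulin promoter eGFP transgene, and the genotype of each line is not given in the sources used here. Neither recipe lists an interferon. The sample titles call the groups Control (complete medium) and Treated (differentiation medium), and the groups were taken from these titles and the table's headers. The treatment entry of all 8 sample records, Control included, names an endocrine induction medium, so that complete medium for the Control libraries rests on the study's methods. Each line is 1 culture per medium, so that a difference within a line has no replicate of its own.

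In complete medium the library of Em held 45854950 counts, LPN 40553593, EPN1 42788581 and EPN2 45980396. In differentiation medium Em held 47910657 counts, LPN 46091016, EPN1 41572524 and EPN2 45802103. Expression is given as CPM, counts scaled to a common library size with TMM factors, and a count of 0 allows up to 3 counts, or 0.0626 to 0.0740 CPM, counting error only. CPM is not corrected for gene length, so that levels are compared between libraries and not between genes.

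The libraries carried the ductal label: KRT8, a keratin of simple epithelia, gave the most counts of the ductal epithelium list, and all 9 of the markers found by name were detected. The markers summed to 9159 CPM in Em, 7080 in LPN, 6644 in EPN1 and 6703 in EPN2 in complete medium. The sums in differentiation medium were 14210 CPM in Em, 5506 in LPN, 9843 in EPN1 and 3832 in EPN2, a wider spread than in complete medium. In bulk RNA, a lower share of a cell type and less RNA per cell cannot be told apart.

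Across all genes, differentiation medium was compared with complete medium by edgeR's quasi-likelihood test in a model of the medium alone. Of 14475 genes tested, 1009 (6.97%) passed an adjusted p-value of 0.05, 416 (2.87%) with higher and 593 (4.1%) with lower values after the change of medium. Of the 8 antigen presentation genes found by name, all 8 were tested and 1, NLRC5, passed. With the line as a block, the test called 2884 genes (19.9%), 1372 of them (9.48%) higher and 1512 (10.4%) lower, and NLRC5 was again the 1 gene called. At an unadjusted p-value under 0.05 the edgeR test gave 2 of the 8 genes without and 3 with the block, against 3954 and 5742 of the 14475 genes tested. These counts do not set the antigen presentation genes apart from all genes.

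**Figure D1:**
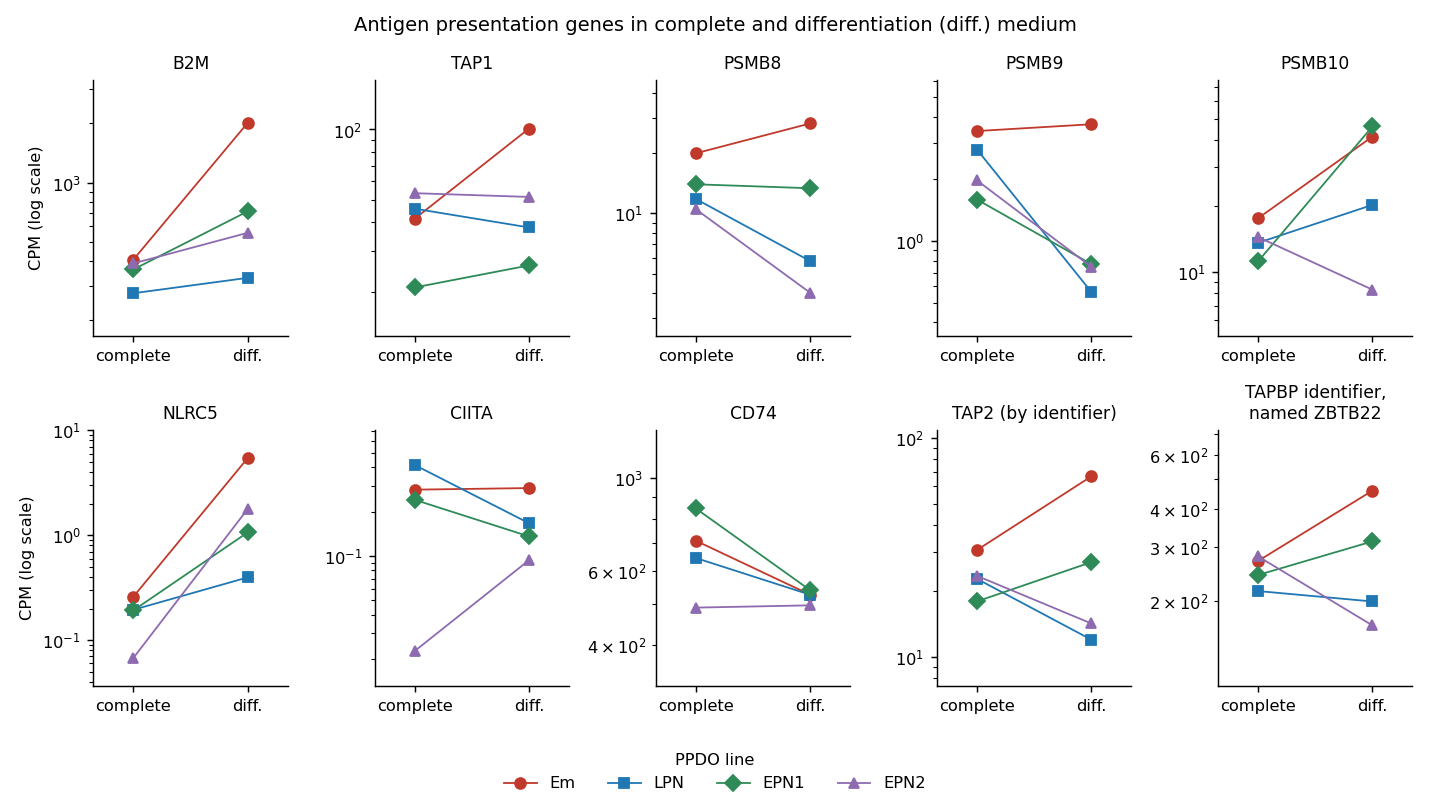
CPM (log scale, each panel with its own range) of the 8 antigen presentation genes found by name and of the 2 identifiers in complete and differentiation (diff.) medium; each point is 1 library and lines join the libraries of the same PPDO line. NLRC5 is higher in differentiation medium in all 4 lines without overlap, whereas the other genes overlap between the media, and Em in differentiation medium is the highest library for B2M, TAP1, PSMB8, PSMB9 and NLRC5.

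NLRC5 (ENSSSCG00000039751), the class I transactivator, was higher in differentiation medium in all 4 lines, and its call lay close to the threshold. In complete medium it stood at 0.260 CPM in Em, 0.195 in LPN, 0.192 in EPN1 and 0.068 in EPN2, which are 12, 8, 8 and 3 counts. In differentiation medium it reached 5.43 CPM in Em, 0.397 in LPN, 1.06 in EPN1 and 1.78 in EPN2, or 263, 19, 47 and 76 counts. All 4 libraries in differentiation medium thus lay above all 4 in complete medium, which held in that direction for 8.82% of the genes tested, and being higher in every line held for 23.9%. The fitted log2 fold change was 3.58 (SE 0.86, edgeR adjusted p = 0.0465), an 11.9-fold difference, and 3.14 (SE 0.72, edgeR adjusted p = 0.0381) in the blocked fit.

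The size of the NLRC5 difference varied widely between lines. It was 20.9-fold in Em, 5.53-fold in EPN1 and 2.03-fold in LPN. No ratio is given for EPN2, whose library in complete medium held only 3 counts. NLRC5 entered the test through the differentiation libraries, since 4 of them but only 1 library in complete medium reached the 0.218 CPM that the expression filter asks of 4 libraries. The call did not hold when a library was left out: leaving out any 1 of the 8 libraries gave an adjusted p of 0.0558 to 0.126, and without the filter it was 0.0673, whereas the log2 fold change was 2.58 without the Em library in differentiation medium and 3.31 to 3.93 without another library. DESeq2, which called 18.4% of genes without and 33.6% with the block, gave NLRC5 an adjusted p of 0.000218 and 0.000148.

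B2M (ENSSSCG00000004687), the class I light chain, was higher in differentiation medium in each of the 4 lines but did not pass the test. It measured 407 CPM in Em, 274 in LPN, 362 in EPN1 and 389 in EPN2 in complete medium. The values in differentiation medium were 2013 CPM in Em, 328 in LPN, 715 in EPN1 and 556 in EPN2. Em stood far above the rest, and LPN in differentiation medium lay within the range of complete medium, so the groups overlapped. The means were 358 ± 58.8 and 903 ± 757 CPM (SD, n = 4), and the log2 fold change was 1.33 (SE 0.52, edgeR adjusted p = 0.147). Without the Em library in differentiation medium it was 0.58 (edgeR adjusted p = 0.231).

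Within lines, the fold of B2M was 4.95 in Em, 1.97 in EPN1, 1.43 in EPN2 and 1.20 in LPN. Em, EPN1 and LPN had the same order for NLRC5, but EPN2 did not keep its place. By log2 CPM with a prior count of 2, the NLRC5 difference was 4.013 in EPN2, above the 2.224 in EPN1 and near the 4.165 in Em. That EPN2 value rests on 3 counts in complete medium. With the line as a block the log2 fold change was 1.00 (SE 0.36, edgeR adjusted p = 0.101). DESeq2 with the line block called B2M, at an adjusted p of 0.0206. The RefSeq annotation of Sscrofa11.1 holds 2 genes named B2M on chromosome 1, and the count table holds 1 gene of that name. Whether the other copy has a row without a symbol was not tested, so reads of the 2 copies may not have been kept apart.

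TAP1 (ENSSSCG00000025618), the transporter subunit, did not move in 1 direction. In complete medium it measured 41.3 CPM in Em, 45.7 in LPN, 21.0 in EPN1 and 53.3 in EPN2. In differentiation medium it was 101 CPM in Em, 38.0 in LPN, 26.1 in EPN1 and 51.3 in EPN2. Em was 2.44-fold and EPN1 1.24-fold higher in differentiation medium, while LPN and EPN2 were at 0.831 and 0.964 of their level in complete medium. The log2 fold change was 0.42 (SE 0.44, edgeR adjusted p = 0.571), and without the Em library in differentiation medium it was -0.07.

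The identifier that a separate table of gene names pairs with TAP2 (ENSSSCG00000025593), the partner of TAP1 in the transporter, followed the same division of lines. It was at 30.7 CPM in Em, 22.7 in LPN, 17.9 in EPN1 and 23.4 in EPN2 in complete medium, against 66.6, 12.0, 27.0 and 14.2 CPM in differentiation medium. Em was 2.17-fold and EPN1 1.51-fold higher, and LPN and EPN2 stood at 0.528 and 0.606 of their level in complete medium. The log2 fold change of 0.34 (SE 0.53, edgeR adjusted p = 0.711) therefore averaged opposite differences, and it was -0.41 without the Em library in differentiation medium. The ductal markers were divided in the same way: their summed CPM and the levels of KRT7, KRT8, KRT18 and EPCAM were higher in Em and EPN1 and lower in LPN and EPN2 in differentiation medium. KRT8, for instance, was 1.42-fold and 1.32-fold higher in Em and EPN1 and at 0.477 and 0.187 of its level in complete medium in LPN and EPN2. The part of the ductal share in the TAP1, TAP2 and TAPBP values was not tested.

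The identifier paired with TAPBP (ENSSSCG00000001507) carries the name ZBTB22 in the count table. In RefSeq, TAPBP (chr7:29663491-29673453) and ZBTB22 (chr7:29673006-29676614) overlap by 448 bases, and although the study lists a stranded library kit, whether the quantification used strand is not given in the sources used here, so that reads of the 2 genes may not have been kept apart in this row. Its values were 271, 216, 244 and 280 CPM in Em, LPN, EPN1 and EPN2 in complete medium and 458, 200, 314 and 167 CPM in differentiation medium. Em and EPN1 were again higher, and LPN and EPN2 lower, in differentiation medium, and the log2 fold change was 0.17 (SE 0.31, edgeR adjusted p = 0.750).

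PSMB8 (ENSSSCG00000026951), PSMB9 (ENSSSCG00000001463) and PSMB10 (ENSSSCG00000031781), the subunits of the immunoproteasome, went different ways. PSMB8 was at 20.0 CPM in Em, 11.8 in LPN, 14.0 in EPN1 and 10.5 in EPN2 in complete medium and at 28.1, 5.78, 13.4 and 4.02 CPM in differentiation medium. It was 1.41-fold higher in Em, near its level in complete medium in EPN1 (0.956) and lower in LPN (0.490) and EPN2 (0.383). The log2 fold change was -0.13 (SE 0.58, edgeR adjusted p = 0.907), and -0.49 (SE 0.35, edgeR adjusted p = 0.344) in the blocked fit. Without the Em library in differentiation medium it was -0.86 (edgeR adjusted p = 0.267).

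PSMB9 had the lowest fold of the 3 subunits. Its values in complete medium were 3.42 CPM in Em, 2.78 in LPN, 1.59 in EPN1 and 1.97 in EPN2. In differentiation medium they were 3.69 CPM in Em, 0.564 in LPN, 0.770 in EPN1 and 0.747 in EPN2. The 3 postnatal lines in differentiation medium lay below every library in complete medium, at 0.203, 0.485 and 0.380 of their own level there in LPN, EPN1 and EPN2, while Em lay above all of them. The log2 fold change was -0.75 (SE 0.66, edgeR adjusted p = 0.488), and -1.14 (SE 0.45, edgeR adjusted p = 0.122) in the blocked fit. Without the Em library in differentiation medium it was -1.81 (edgeR adjusted p = 0.0589).

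PSMB10 leaned the other way in 3 of 4 lines. It measured 17.6 CPM in Em, 13.6 in LPN, 11.2 in EPN1 and 14.4 in EPN2 in complete medium and 41.4, 20.2, 46.1 and 8.27 CPM in differentiation medium. EPN1 was 4.13-fold, Em 2.36-fold and LPN 1.49-fold higher, whereas EPN2 was at 0.575 of its level in complete medium. The log2 fold change was 1.03 (SE 0.48, edgeR adjusted p = 0.210). Leaving out the EPN2 library in differentiation medium, the 1 line that was lower, raised it to 1.34 (edgeR adjusted p = 0.0489). Without the EPN1 library in differentiation medium it was 0.72 (edgeR adjusted p = 0.418).

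Each immunoproteasome subunit takes the place of a constitutive one, and the ratio within a library does not depend on scaling. PSMB7, the counterpart of PSMB10, was found by name, and PSMB5 and PSMB6, the counterparts of PSMB8 and PSMB9, were not, so 1 ratio could be formed. Counts of PSMB10 were 19.7% of those of PSMB7 in Em, 16.5% in LPN, 13.0% in EPN1 and 18.1% in EPN2 in complete medium. In differentiation medium they were 55.1% in Em, 25.6% in LPN, 62.7% in EPN1 and 9.87% in EPN2. The mean log2 ratio differed by 0.88 between the media and did not pass a two-sided exact permutation test (p = 0.257, smallest possible 0.0286), and the sign-flip test over the 4 lines, whose smallest possible p is 0.125, gave an exact p of 0.375. PSMB7 itself had a log2 fold change of -0.11 (SE 0.09, edgeR adjusted p = 0.466), with 79.5 to 89.3 CPM in complete and 73.5 to 83.8 CPM in differentiation medium.

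**Figure D2:**
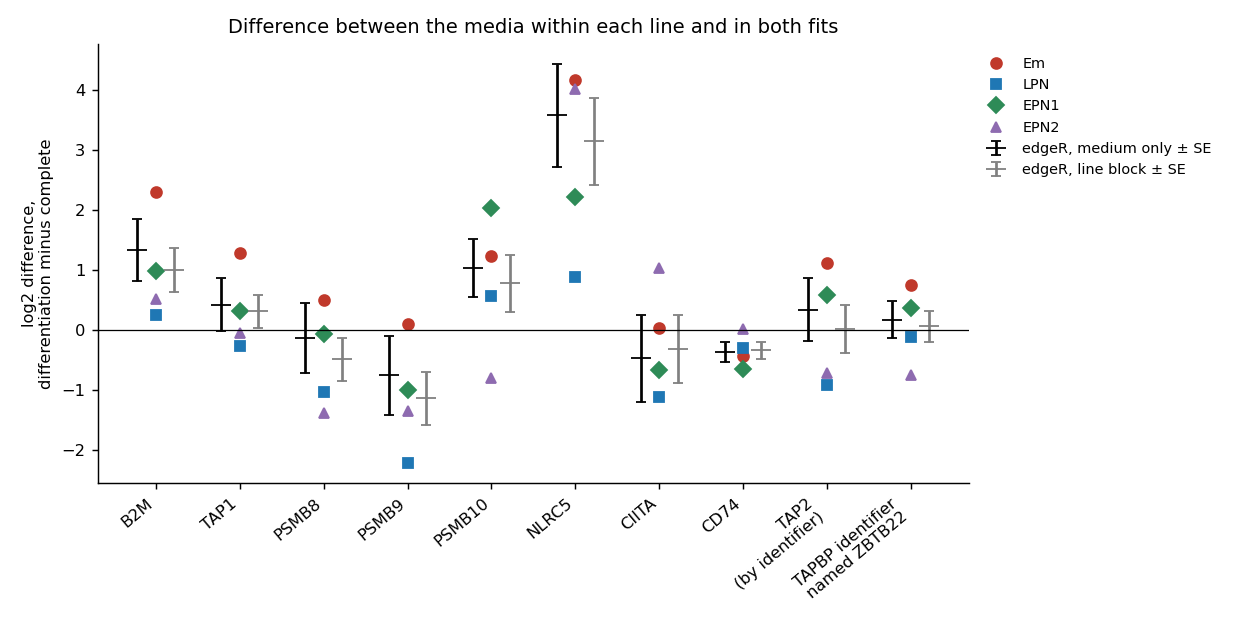
log2 difference between differentiation and complete medium for each antigen presentation gene: coloured symbols are the 4 lines (log2 CPM with a prior count of 2), the black bar the edgeR log2 fold change with the medium only and the grey bar that with the line as a block, both ± SE. NLRC5 and B2M are above 0 in all 4 lines, and PSMB8 and PSMB9 are above 0 in Em and below 0 in the 3 postnatal lines.

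The genes of the chromosome 7 cluster lie side by side. In RefSeq, TAP2 (chr7:25045085-25056915), PSMB8 (chr7:25058456-25061666), TAP1 (chr7:25062772-25071989) and PSMB9 (chr7:25072133-25077508) lie within 32424 bases, and 143 bases separate TAP1 from PSMB9. These positions are those of RefSeq on Sscrofa11.1, the pig build named in the submitters' processing notes, and the custom annotation of the study can differ from them. TAP1 and PSMB9 had different profiles: the Pearson correlation of their log2 CPM over the 8 libraries was 0.46, against 0.79 for PSMB8 and PSMB9 and 0.88 for TAP2 and PSMB8. NLRC5 lies on chromosome 6, and its profile was nearest to that of B2M (0.87), with 0.49 for TAP1, 0.12 for PSMB8 and -0.07 for PSMB9. The 8 libraries share lines and media, and the correlations are a description.

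The 5 genes whose profile was most like the mean of B2M, TAP1, PSMB8, PSMB9, PSMB10 and NLRC5 were CGAS (Pearson r = 0.97 over 8 libraries), LGALS3BP (0.96), PARP9 (0.96), OGFR (0.95) and SETD3 (0.95). CGAS is the sensor of cytosolic DNA. It measured 1.52, 0.780, 0.649 and 0.950 CPM in Em, LPN, EPN1 and EPN2 in complete medium and 3.26, 0.647, 1.36 and 0.747 CPM in differentiation medium. LGALS3BP, a secreted glycoprotein that binds galectins, had 415 CPM in Em in differentiation medium and 10.4 to 51.8 CPM in the other 7 libraries. PARP9, an interferon-inducible ADP-ribosyltransferase family member, was at 59.5 CPM there and at 5.20 to 15.5 CPM elsewhere. All 5 were thus highest in Em in differentiation medium, as the mean profile was.

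Class I genes are targets of interferon, and the interferon stimulated genes had their largest median difference between the media in Em and their smallest in LPN. Of 27 listed, 22 were found by name and 19 tested, none of which passed the edgeR test with the medium only. Of the 19, 14 had an unadjusted edgeR p under 0.05 and DESeq2 called 11, against 3954 and 2747 of the 14475 genes tested. Their median log2 fold change was 2.44, against 0.01 for all genes tested, and the median within-line difference was 3.64 in Em, 1.38 in EPN2, 1.21 in EPN1 and 0.18 in LPN. The median fell to 0.80 without the Em library in differentiation medium and was 1.76 with the line as a block. MX1, an antiviral GTPase, stood at 57.1 CPM in Em in complete and at 710 CPM in differentiation medium, and at 15.6 and 19.7 CPM in LPN. With the line as a block 1 of the 19 passed, against 19.9% of all genes in either direction and 9.48% higher. It was UBE2L6, the conjugating enzyme of ISG15, with a log2 fold change of 1.81 (SE 0.44, edgeR adjusted p = 0.0427). The part of these genes in the levels of B2M, TAP1 and NLRC5 was not tested.

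**Figure D3:**
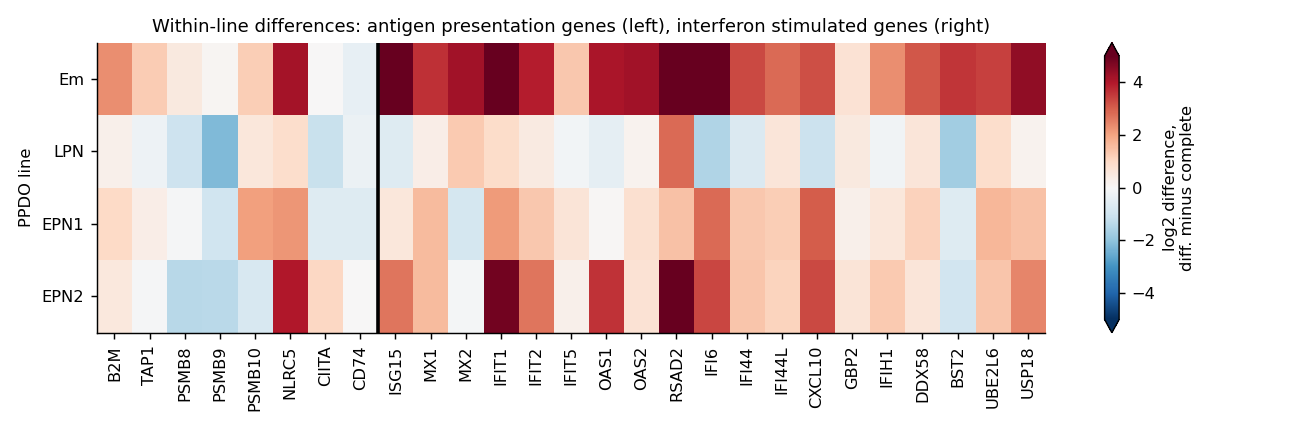
Difference between differentiation (diff.) and complete medium within each PPDO line, as log2 CPM with a prior count of 2, for the 8 antigen presentation genes found by name (left of the black line) and the 19 interferon stimulated genes tested (right); red is higher and blue lower in differentiation medium, and the colours are capped at 5. Em is red for nearly all genes, LPN is pale or blue for most, and PSMB8 and PSMB9 are blue in the postnatal lines.

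Interferon signalling genes gave 1 further call. STAT2, a transcription factor of the type I interferon response, measured 38.3, 45.0, 47.0 and 48.2 CPM in Em, LPN, EPN1 and EPN2 in complete medium and 96.5, 64.0, 69.0 and 92.5 CPM in differentiation medium. It was higher in all 4 lines without overlap, and its log2 fold change was 0.85 (SE 0.17, edgeR adjusted p = 0.0293). Of the 21 signalling genes tested, the medium-only fit called 1 and the block 3, shares below the 6.97% and 19.9% of all genes. IFNGR2, a chain of the interferon-gamma receptor, was higher with the block (0.55, SE 0.14, edgeR adjusted p = 0.0434), and NFKB2, a subunit of the non-canonical NF-kB pathway, was lower (-0.60, SE 0.10, edgeR adjusted p = 0.0193). IRF1, an activator of TAP1 and PSMB9 promoters, had a log2 fold change of 0.13 (SE 0.39, edgeR adjusted p = 0.863).

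Across 11 pathway lists with 125 gene names, 104 genes were found, counting the second copies of PSMA6, POMP and MIF, and 94 were tested. The medium-only test called 4 of the 94 (4.26%) and the line block 15 (16.0%), all 4 included, both shares below those of all genes tested (6.97% and 19.9%). Of the 4 calls, that of MIF held whichever of the 8 libraries was left out (edgeR adjusted p of 0.0141 to 0.0430), that of STAT2 in 3 of 8 fits, that of a second PSMA6 gene in 2 and that of NFYC in 0 (0.0728 to 0.141). None of the 15 blocked calls held in all 4 fits that left out 1 line, where the highest adjusted p of a gene was between 0.0714 and 0.191. MIF, SLA-DMB, CREB1, NFKB2 and CD40 passed in 2 of these 4 fits and HSPA5, CTSS, STAT2, IFNGR2, UBE2L6 and the second PSMA6 gene in 1. The fits without LPN and without EPN1 called only 22 and 8 of all genes, so a lost call there says little about a single gene. The lists were described by counts and medians, with no test of a list.

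**Figure D4:**
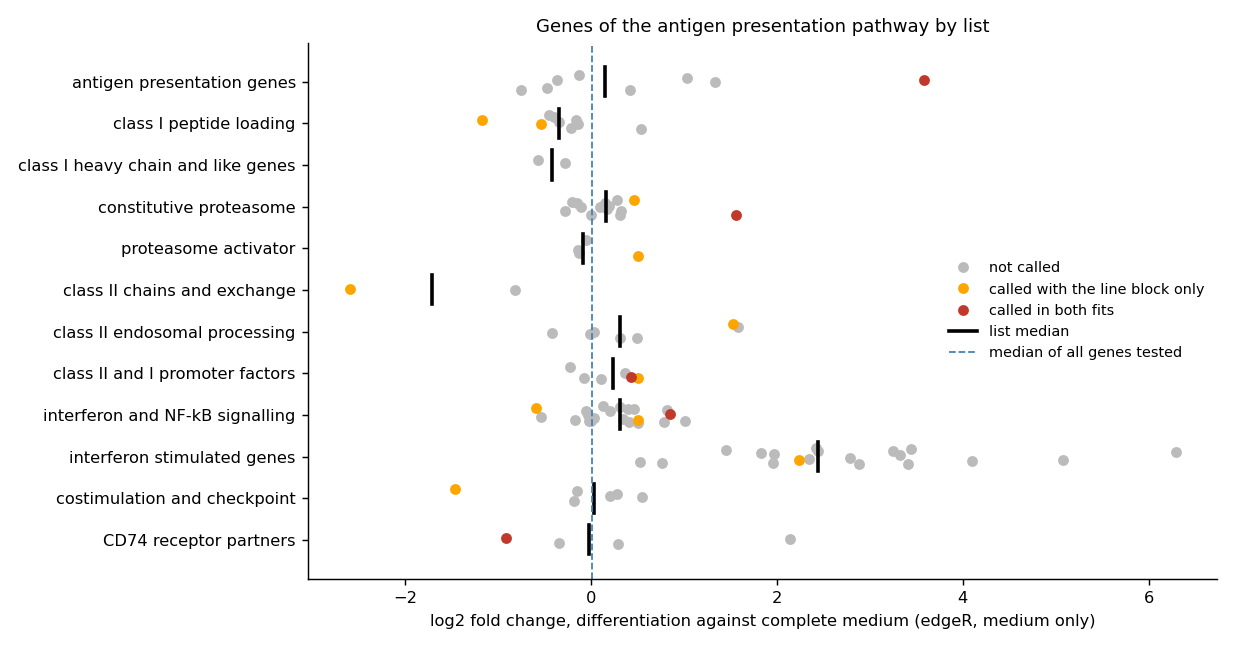
log2 fold change (edgeR, medium only) of each gene tested, by list; a point is a gene, red where it passed an adjusted p of 0.05 in both fits, orange where it passed with the line as a block only, grey otherwise. Black bars are list medians and the dashed line is the median of all genes tested; interferon stimulated genes lie to the right with a median of 2.44, and class I peptide loading genes to the left with -0.35.

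Among the helpers of class I peptide loading, HSPA5 and CALR were lower in differentiation medium with the line as a block, and no gene passed with the medium only. All 9 were tested, their median log2 fold change was -0.35, and 5 of them were lower in every line, against 24.2% of all genes. The 2 blocked calls among 9 genes stand beside 10.4% of all genes called lower in that fit, and the other 4 genes were higher in at least 1 line. HSPA5, the abundant chaperone of the endoplasmic reticulum, measured 1006, 635, 708 and 356 CPM in Em, LPN, EPN1 and EPN2 in complete medium and 421, 213, 309 and 260 CPM in differentiation medium. For HSPA5 the log2 fold change was -1.17 (SE 0.34, edgeR adjusted p = 0.0747) with the medium only and -1.12 (SE 0.21, edgeR adjusted p = 0.0234) with the block. CALR, the lectin chaperone of the loading complex, fell by 0.57 on the log2 scale with the block (SE 0.12, edgeR adjusted p = 0.0330). TAPBPL, a tapasin-like peptide editor, was higher in 3 of 4 lines, with a log2 fold change of 0.54 (SE 0.21, edgeR adjusted p = 0.143). HSPA5 and CALR serve the folding of many proteins besides class I.

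The proteasome core had small differences between the media. The list of constitutive subunits and the assembly factor POMP had 14 genes tested, a median log2 fold change of 0.16, single values from -0.28 to 0.46 apart from 1 gene, and that gene as the 1 call. The call was a second gene named PSMA6 (ENSSSCG00000048255), at 1.54 to 2.60 CPM in complete and 4.83 to 6.99 CPM in differentiation medium (edgeR log2 fold change 1.56, SE 0.28, edgeR adjusted p = 0.0227). The PSMA6 gene with more reads (ENSSSCG00000001950) measured 96.0 to 115 and 124 to 144 CPM (log2 fold change 0.31, SE 0.11, edgeR adjusted p = 0.106), and since both rows bear 1 name, reads could be split between them. With the block 1 of the 2 POMP genes also passed (ENSSSCG00000025996, log2 fold change 0.46, SE 0.10, edgeR adjusted p = 0.0328). Among the proteasome activators, PSME3, the nuclear regulator, was higher with the block (0.53, SE 0.14, edgeR adjusted p = 0.0477). PSME1 and PSME2, whose products form the interferon-inducible activator, had log2 fold changes of -0.13 and -0.14 (adjusted p = 0.808 and 0.835), and PSME2 was higher in Em alone (54.6 against 80.0 CPM).

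Of the class I heavy chains, the SLA genes of the list had no row under the names searched and are not analysed here. FCGRT, the Fc receptor that pairs with B2M, measured 275, 115, 195 and 129 CPM in Em, LPN, EPN1 and EPN2 in complete medium and 272, 69.0, 187 and 59.3 CPM in differentiation medium (edgeR log2 fold change -0.28, SE 0.53, edgeR adjusted p = 0.764). MR1, which presents vitamin B metabolites and also pairs with B2M, had a log2 fold change of -0.57 (SE 0.42, edgeR adjusted p = 0.407). Neither of these partners of B2M was higher in Em in differentiation than in complete medium.

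CIITA (ENSSSCG00000007901), the class II transactivator, was barely detected. It had 13, 17, 10 and 1 counts in Em, LPN, EPN1 and EPN2 in complete medium and 14, 8, 6 and 4 in differentiation medium. The groups overlapped, and the EPN2 library in complete medium was under the limit that a count of 0 allows. Its log2 fold change of -0.47 (SE 0.73, edgeR adjusted p = 0.709) did not pass, and by log2 CPM with a prior count of 2 it was higher in 2 lines and lower in 2.

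The class II chains were near 0. SLA-DRA, the alpha chain of the DR molecule, had at most 1 count in any library and SLA-DOA likewise at most 1. SLA-DRB1 reached at most 0.561 CPM and SLA-DQB1 0.433 CPM, both in complete medium. SLA-DMA and SLA-DMB, the exchange factor that removes the CD74 fragment, were the 2 genes of the list with enough reads to be tested. SLA-DMB measured 1.34, 1.61, 1.40 and 0.249 CPM in Em, LPN, EPN1 and EPN2 in complete medium and 0.351, 0.167, 0.158 and 0.0701 CPM in differentiation medium. SLA-DMB was lower in all 4 lines, with a log2 fold change of -2.60 (SE 0.69, edgeR adjusted p = 0.0613), and -2.57 with the block (SE 0.41, edgeR adjusted p = 0.0189). It entered the test through complete medium, where 4 libraries reached the 0.218 CPM of the filter, against 1 in differentiation medium.

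Among the factors that bind class I and class II promoters, NFYC, a subunit of the CCAAT-binding complex, rose. It measured 27.1, 28.3, 31.2 and 27.3 CPM in Em, LPN, EPN1 and EPN2 in complete medium and 36.3, 37.8, 40.5 and 39.2 CPM in differentiation medium (edgeR log2 fold change 0.43, SE 0.11, edgeR adjusted p = 0.0490). CREB1, a factor with many other targets, was higher with the block (0.51, SE 0.10, edgeR adjusted p = 0.0288). Endosomal proteases of the class II pathway gave 1 call with the block: CTSS, the protease that trims CD74, was at 5.33, 4.78, 4.93 and 2.76 CPM in complete and 18.5, 9.83, 19.4 and 3.81 CPM in differentiation medium (edgeR log2 fold change 1.33, SE 0.30, edgeR adjusted p = 0.0378). The costimulatory receptor CD40 was lower with the block (-1.61, SE 0.34, edgeR adjusted p = 0.0325), at 6.71 to 14.2 CPM in complete and 1.24 to 5.82 CPM in differentiation medium, whereas CD80, another costimulatory molecule, reached at most 0.272 CPM.

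CD74 (ENSSSCG00000033262) was measured at 709 CPM in Em, 645 in LPN, 847 in EPN1 and 491 in EPN2 in complete medium. In differentiation medium it was 527 CPM in Em, 527 in LPN, 541 in EPN1 and 497 in EPN2. The SD over the 4 lines was 148 CPM in complete medium but 18.3 CPM in differentiation medium, and EPN2 was as low in complete medium as the 4 libraries in differentiation medium. CD74 was thus lower in 3 of 4 lines, and the log2 fold change of -0.36 (SE 0.17, edgeR adjusted p = 0.217) did not pass the test, nor did that with the block (-0.34, SE 0.14, edgeR adjusted p = 0.144).

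The profile of the CD74 row was nearest to those of SNORD72 (Pearson r = 0.99 over 8 libraries), RPL38 (0.98), FAU (0.98), RPL18 (0.98) and RSBN1 (0.98), of which RPL38, RPL18 and FAU encode ribosomal proteins and SNORD72 is a small nucleolar RNA. Over the 52 genes tested with names of ribosomal proteins, a set chosen after these correlations were seen, the median r with CD74 was 0.90, against 0.00 over all genes tested, and 46 of the 52 exceeded 0.8. The same median was 0.46 for CIITA and -0.50 for B2M. In RefSeq, CD74 (chr2:151402210-151409924) is followed after 20122 bases by RPS14 (chr2:151430047-151433951), and no row of the table is named RPS14. Of the 30282 genes, only 17095 carry a symbol, so that RPS14 may be present without its name. The B cell marker CD79A, whose neighbour RPS19 also has no named row and begins 3903 bases beyond CD79A, measured 1394, 1430, 1804 and 1142 CPM in complete and 1059, 1068, 1022 and 1151 CPM in differentiation medium, with a median r of 0.92 with the ribosomal genes and 0.92 with CD74. Whether the CD74 row holds reads of a ribosomal gene was not tested, and the CD74 values are given with this limit.

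**Figure D5:**
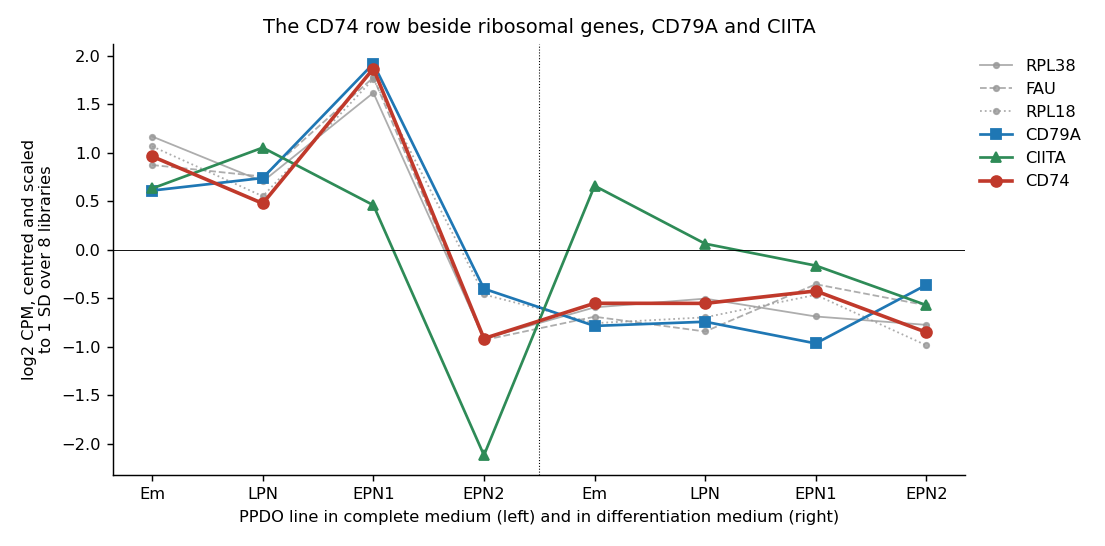
Profiles of the CD74, CD79A and CIITA rows and of RPL38, FAU and RPL18 over the 8 libraries, as log2 CPM centred and scaled to 1 SD for each gene; the dotted line separates complete (left) from differentiation medium (right). CD74 and CD79A run with the 3 ribosomal genes and are highest in EPN1 in complete medium, whereas CIITA does not.

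Of 17 leukocyte markers listed, 15 were found by name, and CD3D, CD3E, FLT3 and TYROBP had at most 3 counts in every library. PTPRC, the pan-leukocyte antigen CD45, was at 2.17 CPM in Em, 0.707 in LPN, 0.529 in EPN1 and 0 in EPN2 in complete medium, and at 0.0413, 0.376, 0.430 and 0 CPM in differentiation medium. The summed level of the list without CD79A was 290, 188, 235 and 117 CPM in complete and 127, 197, 120 and 156 CPM in differentiation medium, most of which was LCP1, an actin bundling protein, with CD14 and CD68. Single markers varied by line. AIF1, a protein of macrophages, was 4.17-fold higher in Em, 1.77-fold in LPN and 6.82-fold in EPN1, at up to 1.90 CPM. In EPN2 AIF1 was at 0.738 of its level in complete medium. SPI1 was lower in all 4 lines, at 0.0952 of that level in Em, 0.277 in LPN, 0.0402 in EPN1 and 0.749 in EPN2. CD68 was lower in Em (0.763), LPN (0.480) and EPN1 (0.128) and 1.09-fold higher in EPN2. CD14, the lipopolysaccharide coreceptor, was at 0.0899 of its level in complete medium in Em but 13.8-fold higher in LPN, 2.79-fold in EPN1 and 9.16-fold in EPN2, at up to 70.1 CPM. The part of leukocytes in the levels of the antigen presentation genes was not tested. With the line as a block ITGAM, an integrin of myeloid cells, had a log2 fold change of -1.84 (SE 0.38, edgeR adjusted p = 0.0308), at 0.0934 to 0.248 CPM in differentiation medium. It too entered the test through complete medium, since only 1 library in differentiation medium reached 0.218 CPM.

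MIF, the ligand of CD74 as a receptor, had the smallest adjusted p among the pathway genes. It measured 176, 180, 156 and 183 CPM in Em, LPN, EPN1 and EPN2 in complete medium and 98.8, 87.7, 87.9 and 95.1 CPM in differentiation medium. The groups were well apart in every line, and MIF (ENSSSCG00000010067) fell by 0.91 on the log2 scale (SE 0.10, edgeR adjusted p = 0.00735). A second gene of that name (ENSSSCG00000041866), at 1.17 to 2.83 CPM, had a log2 fold change of 0.29 (SE 0.31, edgeR adjusted p = 0.575), and reads could be split between the 2 copies. CD44, the coreceptor that signals with CD74, had a log2 fold change of -0.34 (SE 0.39, edgeR adjusted p = 0.609). CXCR4, another partner of CD74, was at 9.46 CPM in EPN2 in differentiation medium and between 0.0413 and 2.71 CPM in the other 7 libraries.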

How the data were processed

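The authors selected poly(A) RNA, sequenced it paired-end and quantified transcripts of a custom annotation of the pig genome with salmon in nf-core. The deposited values are estimated counts per row, of which 78.6% of those above 0 are whole, and the study's methods speak of gene length scaled counts. Of 56060 rows, 25770 carry the suffix -ext, with 2.58% of counts; rows were summed per gene and rounded, and 8 reporter rows (0.00142% of counts) were left out. Columns were assigned to media and lines by their header, since replicate numbers were not matched to lines. No column was left unused.

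Tests were run with edgeR 4.0.16 in R 4.3.3 (TMM, its expression filter, quasi-likelihood test, Benjamini-Hochberg adjustment over 14475 genes, threshold 0.05) and, as an alternative, DESeq2 1.42.0. Plots used matplotlib 3.10.9. The study's methods name no line term, so the fit has the medium only, and the line was the block of the alternative. The line pairs libraries by design: after removal of the mean of each medium, libraries of 1 line correlated at 0.40 to 0.66 (4 pairs) and those of different lines at -0.48 to 0.24 (12 pairs). P-values of the medium-only fit measure the spread between these lines, and those of the blocked fit the spread of the differences within lines. The ratio of PSMB10 to PSMB7 used a prior count of 0.5. The scripts were tested on simulated counts.

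The antigen presentation genes and the pathway and marker lists were chosen with earlier results of these data known. Named were these genes, pathway genes past the threshold in either edgeR fit, the PSMB counterparts, the 5 genes most like the class I mean and like CD74, and markers beside them; IRF1, MX1, PSME1, PSME2, TAPBPL, FCGRT, MR1, CD80, CD44, CXCR4 and the near-zero class II chains were named after their values were seen. A gene of the signalling list, included in its counts, is not reported here. Levels of single genes were not corrected for length.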

Additional observations from a re-analysis of the deposited data

Results flagged for a closer look

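In 52 groups of 4 libraries (each antigen presentation gene, each other pathway gene called by either edgeR fit, and the ratio of PSMB10 to PSMB7, in each medium), 3 held a library far from the others, and chance flags about 1 group in 20. PSMB9 in Em in differentiation medium, at 3.69 CPM, stood apart from the 3 postnatal lines at 0.564 to 0.770 CPM. POMP (ENSSSCG00000025996) in LPN in differentiation medium was at 46.5 CPM against 36.7 to 38.1 CPM in the other lines. IFNGR2 in EPN2 in differentiation medium was at 77.8 CPM against 118 to 121 CPM.

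PSMB8 and PSMB9 were flagged because Em went against all 3 postnatal lines. The log2 difference of PSMB8 between the media was 0.49 in Em and -0.07 to -1.38 in the postnatal lines, and that of PSMB9 was 0.11 in Em, -2.21 in LPN, -1.003 in EPN1 and -1.34 in EPN2. The difference between the embryonic and the postnatal lines was not tested, and Em is 1 line.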

How the results depend on the processing

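The log2 fold changes of NLRC5, B2M, PSMB9, PSMB10 and CD74 kept their sign under all 23 alternatives, and the call of NLRC5 held under 6 of them. Across the 8 antigen presentation genes, DESeq2 with the line as replicate block called 2 (NLRC5 and B2M), edgeR without the filter 0 (2 at an unadjusted p under 0.05), and fits without 1 library or line called 0 to 1; the 1 was PSMB10, without EPN2 in differentiation medium or, with the replicate block, without the EPN2 line. Where these edgeR fits called 0, 1 to 3 genes had an unadjusted p under 0.05. RLE or upper quartile factors and leaving out the -ext rows changed no call among these 8 genes, of which the fit without the -ext rows held 7.

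Over all genes, 1372 were higher and 1512 lower with the replicate block, 1496 and 1528 with DESeq2, 2908 and 2686 with DESeq2 and the block, and 183 and 323 without the filter. Leaving out 1 library or line gave 0 to 1451 higher and 0 to 1538 lower; edgeR called 0 genes without the EPN1 line, with 2220 at an unadjusted p under 0.05. Of the pathway genes, 9 were higher and 6 lower with the block, 18 and 4 with DESeq2, and 24 and 9 with DESeq2 and the block. Leaving out 1 library or line gave 0 to 6 higher and 0 to 6 lower.

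Signs turned for genes that were not called. Leaving out 1 library or line moved TAP1 between -0.065 and 0.66, the TAP2 identifier between -0.41 and 0.60, the TAPBP identifier between -0.15 and 0.41, PSMB8 between -0.86 and 0.17 and CIITA between -0.85 and 0.10. The log2 ratio of PSMB10 to PSMB7 differed by 0.53 to 1.42 without 1 library. Without EPN2 in differentiation medium it reached an exact p of 0.0286, the smallest that the permutation test can give with 1 library left out. The cause of these shifts was not tested. The fits that left out a line from the blocked model were added after the data were seen. The NLRC5 and CIITA values rest on few counts, 3 to 12 and 1 to 17 per library in complete medium.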

Other observations

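Markers of other cell types were summed over each library. Fibroblast and stroma markers, led by VIM, came to 22.5 to 73.1 CPM in complete and 2.45 to 51.1 CPM in differentiation medium, and PDGFRB, a receptor of mural and stromal cells, had a log2 fold change of -3.04 with the line as a block (SE 0.44, edgeR adjusted p = 0.0160), with 4 libraries in complete and 2 in differentiation medium at the 0.218 CPM of the filter. Other genes of that list went the other way: COL3A1, a fibrillar collagen, had at most 2 counts in complete medium and 244, 8, 268 and 2 in Em, LPN, EPN1 and EPN2 in differentiation medium, COL1A2 had 0 and 85 counts in Em, and PDGFRA, a receptor of fibroblasts, had 1 to 4 counts in complete and 6 to 29 in differentiation medium. None of these 3 had enough reads to be tested. Endothelial markers came to 21.9 to 34.9 and 16.2 to 44.7 CPM with KDR giving the most counts. TEK, which also marks endothelium, was at 12.4 CPM in EPN1 in differentiation medium and at most 0.501 CPM in every other library, while CDH5 had at most 3 counts everywhere. Acinar markers summed to at most 1.76 CPM in any library. Endocrine markers summed to 21.3 CPM in Em in differentiation medium, of which GCG, the glucagon gene, gave 17.2 CPM, and to at most 2.41 CPM elsewhere. CDH1, the cadherin of epithelial junctions, was higher with the line as a block (log2 fold change 1.11, SE 0.17, edgeR adjusted p = 0.0173).

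BST2, an interferon stimulated membrane protein, was higher in differentiation medium in Em alone (7.61 against 91.0 CPM) and lower in LPN (9.26 against 2.71), EPN1 (6.80 against 4.28) and EPN2 (4.52 against 2.33), the same division of lines as PSMB8 and PSMB9. The 2 cathepsins CTSB and CTSH were highest in EPN2 in differentiation medium, at 1657 and 1502 CPM. CTSH was also at 1101 CPM in LPN in differentiation medium and at 154 to 368 CPM in the other 6 libraries.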
